A study of Mus musculus with 5 samples.

Results

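The miR-30 family is a group of mature miRNAs that begin with the same bases and come from separate hairpin genes. Its members were taken by name as the 5p arms of miR-30a, miR-30b, miR-30c, miR-30d and miR-30e with every precursor listed for them, which gave 5 of the 1105 mature miRNAs in the deposited table and 6 of its 1191 pairs of a mature miRNA and a precursor. The small RNA libraries came from OP9 cells, a mouse mesenchymal stromal line from bone marrow that can turn into adipocytes. The 2 Drosha knockout (KO) libraries were set against 3 libraries that carried an empty vector (EV) and had the genotype label WT. Both groups were sampled at day 10 of differentiation with 1 µM rosiglitazone, a PPARγ agonist that drives adipogenesis, so no library shows undifferentiated cells. The sources used here do not say whether the knockout was 1 clone or whether the libraries of a group were grown apart, and p-values describe only how far libraries of a group differ, a spread that may be technical.

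Drosha is the nuclear RNase III enzyme that, with DGCR8, cuts the hairpin out of a primary miRNA transcript. Dicer then trims the hairpin to a duplex, and 1 strand is loaded into Argonaute, where bases 2 to 8, the seed, select target mRNAs. Members of a seed family can therefore act on overlapping targets. The miR-30 family is known from human and mouse cells for restraining osteogenic differentiation through Runx2 and Smad1 and, in human adipose stem cells, for favouring adipogenesis.

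The mature sequences show what the members have in common and what sets them apart. RefSeq sequences on GRCm38.p6 were matched for 3 of the 5 members (miR-30a-5p, miR-30c-5p and miR-30e-5p) and for miR-384-5p, a miRNA outside the family by name that has the same seed. They are written 5′ to 3′ with the seed in capitals.
miR-30a-5p: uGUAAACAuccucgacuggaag
miR-30e-5p: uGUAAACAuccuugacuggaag
miR-30c-5p: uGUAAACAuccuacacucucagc
miR-384-5p: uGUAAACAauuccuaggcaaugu

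Counted from the 5′ end, miR-30a-5p and miR-30e-5p differed by 1 substitution, C13U. miR-30c-5p shared its first 12 bases with miR-30a-5p, differed at 5 of the 22 positions compared (C13A, G14C, G18C, G19U and A20C) and was 1 base longer. miR-384-5p shared only the first 8 bases with miR-30a-5p. Of 1679 mature names in the RefSeq table, these 4 had the seed GUAAACA. That table had no entry for miR-30b-5p or miR-30d-5p, so the count leaves them out. All 4 were listed in the deposited table, but miR-384-5p had no read in any library. The same was true of miR-30f, annotated on the strand opposite Mir30e. No 3p arm of a miR-30 hairpin was analysed here.

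The hairpins that could be matched are shown because Drosha acts on them, with the 5p member in capitals.
Mir30a: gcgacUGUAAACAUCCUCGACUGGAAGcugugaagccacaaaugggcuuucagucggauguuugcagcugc
Mir30c-2: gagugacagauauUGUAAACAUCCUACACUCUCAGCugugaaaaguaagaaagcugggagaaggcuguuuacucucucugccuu
Mir30c-1: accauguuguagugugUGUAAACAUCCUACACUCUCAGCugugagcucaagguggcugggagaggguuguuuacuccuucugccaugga
Mir30e: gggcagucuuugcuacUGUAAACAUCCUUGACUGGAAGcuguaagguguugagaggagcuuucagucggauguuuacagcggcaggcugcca

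Mir30a (chr1:23272269-23272339) and Mir30c-2 (chr1:23291701-23291784) lie on the plus strand of GRCm38 with 19361 bases between them. In GENCODE M21, Mir30a overlaps no other gene and Mir30c-2 lies in an exon of the long non-coding RNA Gm27028. Mir30c-1 (chr4:120769534-120769622) and Mir30e (chr4:120772606-120772697) lie on the minus strand, 2983 bases apart, in introns of Nfyc, which encodes a subunit of the CCAAT-binding factor NF-Y. Both were intronic in all 6 Nfyc transcripts that span them. The letters UGUG, an apical motif described for human primary miRNAs, were searched on the hairpin strand between the annotated 5p and 3p arms. They were present in 3 of these 4 hairpins, Mir30e being the exception, and in 12.1% of the 644 mouse hairpins with both arms annotated. A match of letters is a description and not a measured site.

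The libraries differed in depth. The deposited values are TPM, reads divided by length and scaled to an equal sum per library. They resolved into whole reads, 304722 and 277142 in KO libraries and 1918589 to 2262367 in EV libraries. These totals run over all pairs, so a miRNA with several precursors counts more than once. With 1 pair per mature miRNA they were 214264 and 200659 in KO libraries and 1347800 to 1613590 in EV libraries. A read of 22 bases was worth 3.32 and 3.67 TPM in KO libraries and 0.448 to 0.528 TPM in EV libraries. All 7 marker miRNAs of mesenchymal stroma had reads, with summed levels of 22883 and 34057 TPM in KO libraries and 20831 to 25595 TPM in EV libraries. Of markers of other cells, miR-223-5p, miR-142a-5p and miR-144-5p (blood), miR-126a-5p (endothelium), miR-124-5p (neurons), 6 of 7 epithelial and 4 of 5 muscle markers were at 0 in every library. Most of these are 5p arms of hairpins whose abundant arm is 3p, so their zeros say little about the cell types. The 7 listed blood markers summed to 120 and 202 TPM in KO libraries and 201 to 220 TPM in EV libraries, and the 4 neural and liver markers, of which 3 had reads, to 33.0 and 49.5 TPM in KO libraries and 25.3 to 30.9 TPM in EV libraries. Within these lists, the red-cell miR-451a was at 19.9 and 58.7 TPM in KO libraries and 8.06, 4.99 and 7.91 TPM in EV libraries. The liver miR-122-5p was at 36.5 and 25.7 TPM in KO libraries and 11.65, 11.98 and 5.28 TPM in EV libraries. Both were above EV libraries in each KO library, as were 35.6% of the 205 miRNAs averaging 5 TPM or more. Their part in the results was not tested. Not all blood markers followed miR-451a. miR-155-5p was at 57.1 and 73.7 TPM in KO libraries, below EV libraries at 78.8, 126 and 119 TPM. miR-150-5p overlapped, at 0 and 14.7 TPM in KO libraries and 10.3, 6.49 and 10.6 TPM in EV libraries. Values are from bulk cultures, in which fewer cells of a type and less RNA per cell cannot be told apart. Every change given is in relative abundance among the listed miRNAs.

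mmu-miR-30d-5p carried nearly the whole family. It was at 5749 and 11177 TPM in KO libraries, against 3367, 5077 and 4527 TPM in EV libraries. Both KO libraries were above every EV library, and the level in KO library 2 was 1.94 times that in KO library 1. The reads behind these values were 1733 and 3048 in KO libraries and 7515, 10173 and 8582 in EV libraries, so counting error is small beside the gap between libraries. By level among all mature miRNAs, miR-30d-5p ranked 22 and 16 in KO libraries and 30, 27 and 28 in EV libraries.

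mmu-miR-30a-5p, the member best known for lowering the autophagy protein Beclin 1 in human cells, was at 299 and 557 TPM in KO libraries and 177, 309 and 256 TPM in EV libraries. KO library 1 lay below EV library 2, so the groups overlapped. mmu-miR-30c-5p, which targets Runx2 in mouse osteoblast lines, was at 263 and 456 TPM in KO libraries and 161, 226 and 283 TPM in EV libraries. Here KO library 1 lay below EV library 3. Its precursors Mir30c-1 and Mir30c-2 had equal values in all 5 libraries. The mature sequence is the same from both genes, so they are 1 measurement and do not show which gene was the source.

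mmu-miR-30b-5p, which comes from the same gene cluster as miR-30d-5p, was at 202 and 392 TPM in KO libraries and 128, 162 and 225 TPM in EV libraries, again with KO library 1 inside the EV range. In all 3 of these members KO library 2 was above every other library. mmu-miR-30e-5p was close to the limit of detection. It had 2 reads in each KO library (6.63 and 7.33 TPM) and 4, 6 and 7 reads in EV libraries (1.79, 2.99 and 3.69 TPM).

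**Figure D1:**
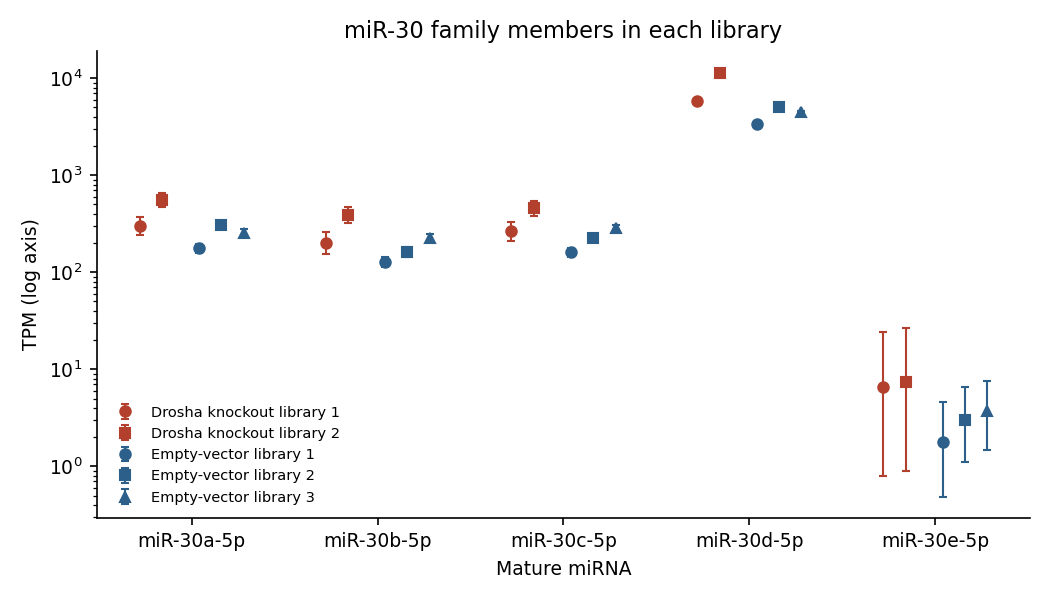
TPM of each miR-30 member (log axis) in the 2 Drosha knockout and 3 EV libraries, with exact 95% Poisson intervals that cover counting error only. miR-30d-5p lies at 3367 to 11177 TPM, miR-30a-5p, miR-30b-5p and miR-30c-5p at 128 to 557 TPM, and miR-30e-5p at 1.79 to 7.33 TPM.

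Beside miR-30a-5p, from which it differs by 1 base, miR-30e-5p had 2.22% and 1.32% as many reads in KO libraries and 1.02%, 0.969% and 1.44% in EV libraries. Whether these reads are miR-30e-5p or miR-30a-5p read with an error at that base was not tested. Pooled over libraries, the rate of miR-30e-5p reads in the knockout was 2.51 times that in EV cells, with an exact 95% interval of 0.615 to 7.70 that covers counting error only. Although both KO libraries listed it above every EV library, a difference was not detectable at this depth.

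The order of levels was miR-30d-5p, miR-30a-5p, miR-30c-5p, miR-30b-5p and miR-30e-5p in 4 of the 5 libraries. The exception was EV library 3, where miR-30c-5p was above miR-30a-5p. Among the 3 middle members the Poisson intervals of neighbours in this order overlapped in both KO libraries. In the knockout, for example, the interval of library 1 was 240 to 367 TPM for miR-30a-5p and 210 to 326 TPM for miR-30c-5p.

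In relative abundance, miR-30d-5p and miR-30a-5p rose in the knockout as deposited. Both were lower instead on a scale that sets the sum of miRNAs made without Drosha, mostly miR-484, equal in all libraries. miR-30d-5p averaged 8463 ± 3838 TPM in KO cells (SD, n = 2) and 4324 ± 873 TPM in EV cells (SD, n = 3), a ratio of 1.96. Its log2 change was 0.91 (SE 0.26, 95% interval 0.38 to 1.44, adjusted p = 0.00497 in limma on log2(TPM + 1) with Benjamini-Hochberg adjustment over the 205 miRNAs averaging 5 TPM or more). miR-30a-5p averaged 428 ± 183 TPM in KO cells and 247 ± 66.7 TPM in EV cells, with a log2 change of 0.76 (SE 0.32, 95% interval 0.10 to 1.41, limma, adjusted p = 0.0468).

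miR-30b-5p and miR-30c-5p did not pass the threshold of 0.05. miR-30b-5p averaged 297 ± 134 TPM in KO cells and 172 ± 49.3 TPM in EV cells, with a log2 change of 0.75 (SE 0.34, limma, adjusted p = 0.0607). miR-30c-5p averaged 360 ± 136 TPM in KO cells and 223 ± 61.0 TPM in EV cells, with a log2 change of 0.67 (SE 0.32, limma, adjusted p = 0.0778). Their 95% intervals of 0.058 to 1.44 and 0.012 to 1.33 on the log2 scale take in the changes of miR-30d-5p and miR-30a-5p. miR-30e-5p, with a mean of 4.49 TPM, was below the filter and not tested.

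Of the 4 members that passed the filter, 2 were called higher and 0 lower, where 27.8% of all 205 tested miRNAs were called higher and 27.3% lower. The median log2 change was 0.75 over these 4 members and -0.08 over all tested miRNAs, of which 57 had a larger change than miR-30d-5p. Of the 4, only miR-30d-5p had both KO libraries above all EV libraries, as did 35.6% of tested miRNAs, and none had both below (38.0% of tested miRNAs). On recovered reads with limma's voom the same 2 members were called higher, where 25.9% of miRNAs were, and with no filter on low values 0 of 5 were (limma, lowest adjusted p = 0.0556), where 11.3% were. These counts are a description and mark nothing as particular to the family.

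**Figure D2:**
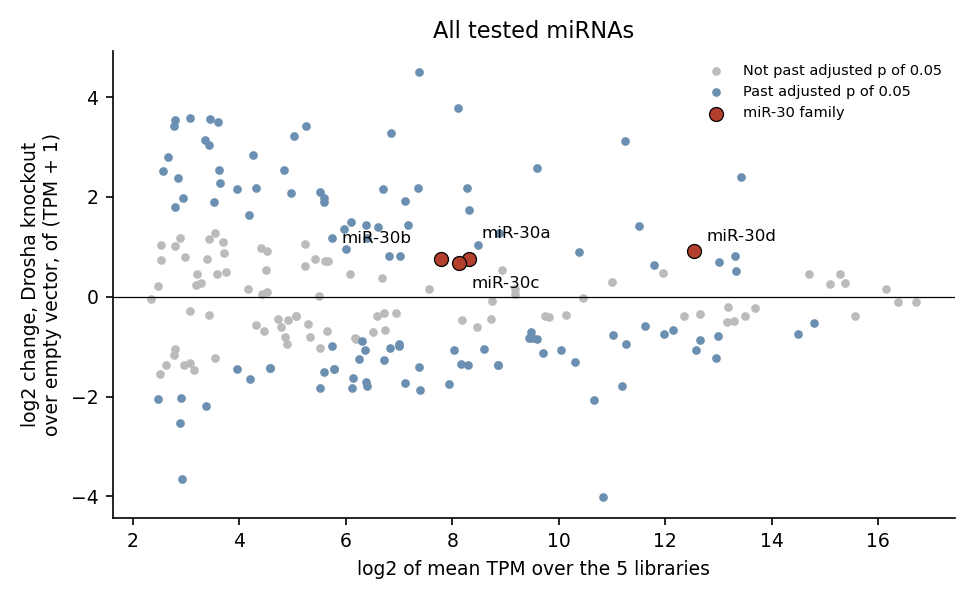
Each point is 1 of the 205 tested miRNAs, with the log2 of its mean TPM over 5 libraries across and its log2 change in the Drosha knockout over empty vector upward, as deposited. The 4 tested miR-30 members lie between 0.67 and 0.91, with miRNAs of larger change above them, and all 4 are negative with scaling to an equal sum of Drosha-independent miRNAs.

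The direction depends on what the libraries are scaled to. Most of the Drosha-independent sum was miR-484, at 21642 of 27015 and 21011 of 27548 TPM in KO libraries. In EV libraries it was at 3640 of 4338, 3537 of 4245 and 5105 of 5773 TPM. That scale takes the sum as unchanged by the knockout, which was not tested. Over all tested miRNAs, 57 were called higher and 56 lower as deposited, 47 and 76 under TMM scaling, and 3 and 160 on a scale that sets the Drosha-independent sum equal. The median log2 change over all tested miRNAs was -0.08, -0.37 and -2.53 under these scalings. On the last, the log2 changes were -1.61 for miR-30d-5p, -1.76 for miR-30a-5p, -1.76 for miR-30b-5p and -1.84 for miR-30c-5p, and all 4 were called lower (limma). Relative to the median of all tested miRNAs, miR-30d-5p stood at 0.99 as deposited, 0.99 under TMM and 0.92 on the Drosha-independent scale. The values of miR-30c-5p on the same basis were 0.75, 0.75 and 0.69. These scalings divide each library by a factor of its own, which moves the log2 change of every miRNA by nearly the same amount. The members' place above the median miRNA is therefore the same observation on each scale and no added support. Their sign against 0 was not fixed by these data.

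**Figure D3:**
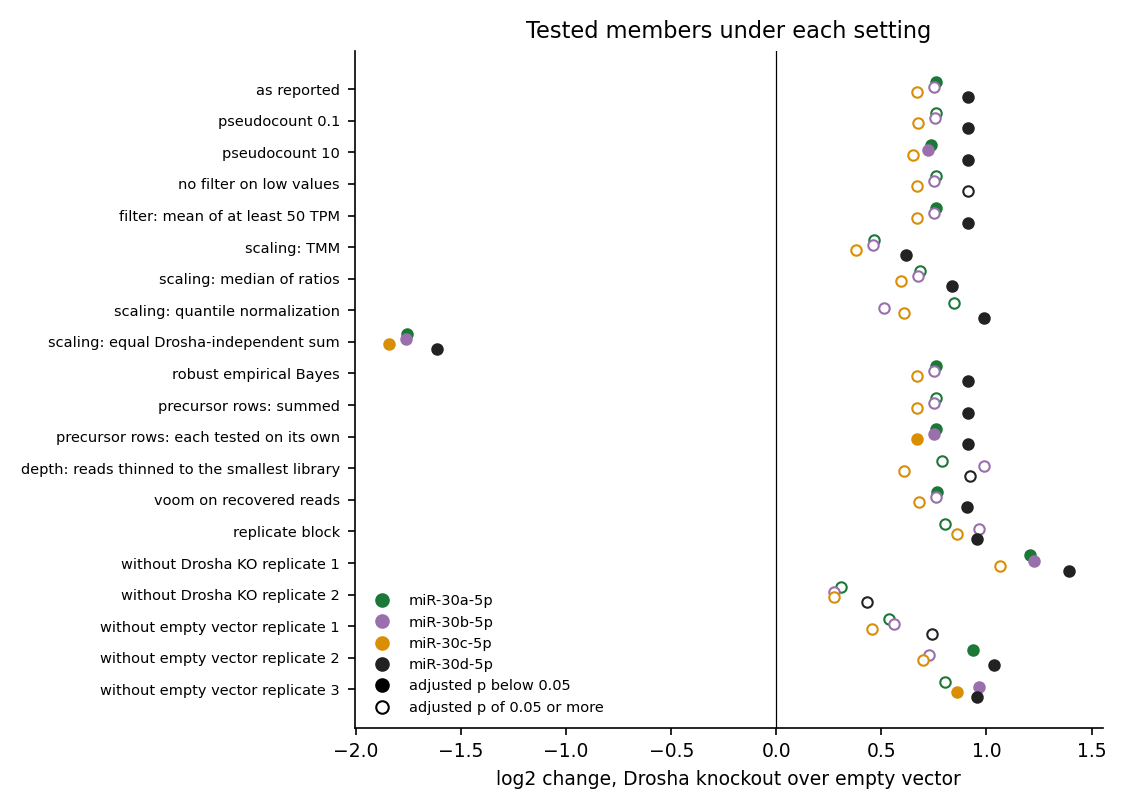
log2 change of the 4 tested miR-30 members in the Drosha knockout over empty vector under each way of processing the table, filled where the adjusted p was below 0.05. Values are positive throughout, from 0.27 to 1.39, except with scaling to an equal sum of Drosha-independent miRNAs, where they run from -1.84 to -1.61.

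The calls changed when single libraries were left out. Without KO library 2 the log2 change of miR-30d-5p was 0.43 (limma, adjusted p = 0.163) and without EV library 1 it was 0.74 (adjusted p = 0.114), and miR-30a-5p at 0.31 and 0.53 was not called either. Without EV library 3, miR-30a-5p was at 0.80 (limma, adjusted p = 0.0574). miR-30d-5p also missed the threshold with no filter on low values (limma, adjusted p = 0.0556) and with reads thinned to the smallest library (adjusted p = 0.0700), and it was called higher in 14 of 19 alternatives, against 7 of 19 for miR-30a-5p, 4 for miR-30b-5p and 2 for miR-30c-5p.

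The gap between KO libraries was shared by the 4 more abundant members. The ratio of KO library 2 to library 1 was 1.87 for miR-30a-5p, 1.94 for miR-30b-5p, 1.73 for miR-30c-5p and 1.94 for miR-30d-5p. On the log2 scale these are 0.79 to 0.96, where the median of all tested miRNAs was 0.02, and 23 to 33 of the 205 tested miRNAs had a larger ratio. The summed mesenchymal markers were also higher in KO library 2 than in library 1. Their part in the result was not tested.

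**Figure D4:**
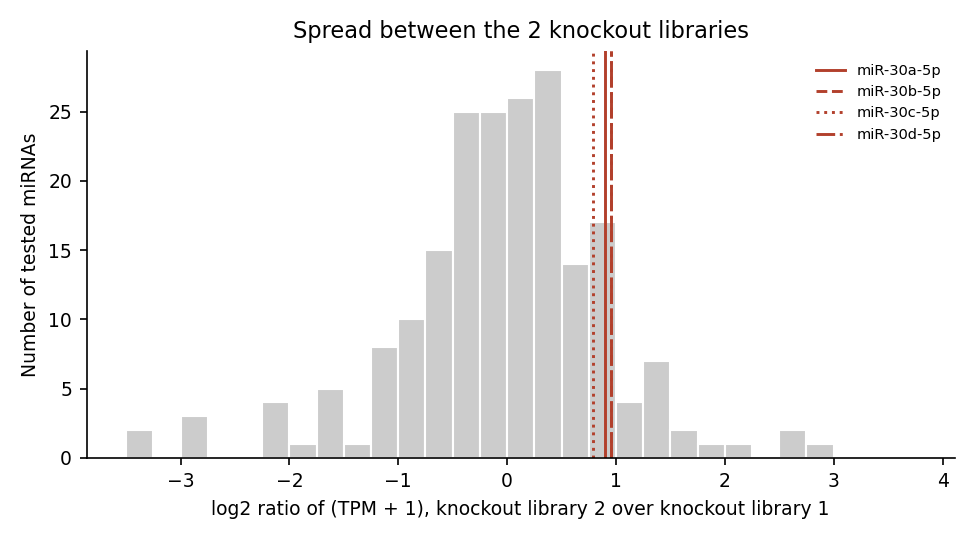
Histogram of the log2 ratio of (TPM + 1) in Drosha KO library 2 over KO library 1 for the 205 tested miRNAs, with a line for each tested miR-30 member. The lines lie at 0.79 to 0.96, in the upper part of a distribution with a median of 0.02.

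Summed over its 5 members, the family was at 6520 and 12590 TPM in KO libraries and 3834, 5777 and 5295 TPM in EV libraries. This was 0.652% and 1.26% of the TPM of all pairs in KO libraries and 0.383%, 0.578% and 0.529% in EV libraries. With 1 pair per mature miRNA it was 0.927% and 1.74% in KO libraries and 0.537%, 0.798% and 0.753% in EV libraries. Both KO libraries were above all 3 others as deposited. The log2 difference of knockout minus empty vector was 0.89 (exact permutation p = 0.2, two-sided, the smallest that 2 against 3 libraries allow), and -1.64 (exact permutation p = 0.2) on the Drosha-independent scale. Without KO library 2 it was 0.41.

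Shares of the family within a library are free of the scaling between libraries. miR-30d-5p made up 88.2% and 88.8% of the family in KO libraries and 87.8%, 87.9% and 85.5% in EV libraries. The share of miR-30a-5p was 4.58% and 4.43% in KO libraries and 4.60%, 5.35% and 4.84% in EV libraries. For these 2 members KO libraries lay on 1 side of EV libraries, above for miR-30d-5p and below for miR-30a-5p, by small margins.

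miR-30c-5p made up 4.04% and 3.62% of the family in KO libraries and 4.19%, 3.92% and 5.34% in EV libraries. miR-30b-5p made up 3.10% and 3.12% in KO libraries and 3.34%, 2.80% and 4.25% in EV libraries. EV library 3 was highest for both. miR-30e-5p stayed at 0.0467% to 0.102% in every library.

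The difference in share, knockout minus empty vector, was 1.41 percentage points for miR-30d-5p and -0.43 for miR-30a-5p (exact permutation p = 0.2 for both, 0.5 after Benjamini-Hochberg adjustment over the 5 members). It was -0.65 points for miR-30c-5p (exact permutation p = 0.4, adjusted 0.5), -0.35 for miR-30b-5p (exact permutation p = 0.8, adjusted 0.8) and 0.024 for miR-30e-5p (exact permutation p = 0.4, adjusted 0.5). No difference in share could pass a threshold of 0.05 with these libraries, and such p-values do not show that the make-up was the same. Several of these differences moved with 1 library. Without EV library 3 they were 0.63 points for miR-30d-5p, -0.22 for miR-30c-5p and 0.040 for miR-30b-5p, which also turned to 0.12 after thinning. Without EV library 2 the difference was -0.22 for miR-30a-5p and -0.69 for miR-30b-5p, without KO library 1 it was 0.0021 for miR-30e-5p, and without KO library 2 it was 0.046 for miR-30e-5p.

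**Figure D5:**
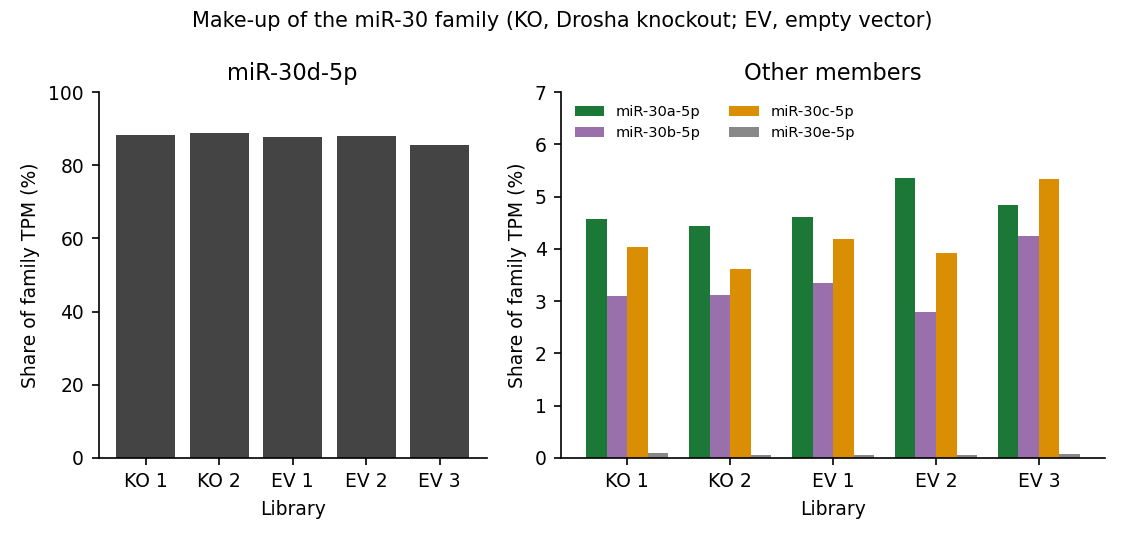
Percent of the family's summed TPM taken by each miR-30 member in each library, with Drosha knockout (KO) left of empty vector (EV) and an axis of its own for miR-30d-5p. miR-30d-5p took 85.5% to 88.8% in every library, and in EV library 3 miR-30c-5p, at 5.34%, exceeded miR-30a-5p, at 4.84%.

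The ratio of members of 1 cluster was looked at in the same way. miR-30b-5p was below miR-30d-5p, its cluster partner, at a log2 ratio of -4.83 and -4.83 in KO libraries and of -4.72, -4.97 and -4.33 in EV libraries. The KO libraries fell inside the EV range (exact permutation p = 0.8 for the difference). miR-30a-5p was below miR-30d-5p at -4.27 and -4.33 in KO libraries and -4.25, -4.04 and -4.14 in EV libraries (exact permutation p = 0.2).

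The 5 miRNAs whose pattern over the 5 libraries was nearest to the mean profile of the tested members were miR-199a-5p, miR-139-5p, miR-345-5p, miR-361-5p and miR-194-5p. They were found among 90 miRNAs outside the family with a mean of at least 100 TPM, by Euclidean distance between centred log2(TPM + 1) profiles. The distances were 0.484 to 0.587, where the median candidate was at 1.74. The tested members were at 0.216 to 0.277, but they make up that mean profile and so must lie near it. miR-199a-5p, an abundant miRNA of mesenchymal cells, was at 8954 and 12637 TPM in KO libraries and 5540, 8123 and 6254 TPM in EV libraries. Like miR-30d-5p it was highest in KO library 2 and lowest in EV library 1. The 5 were picked for a like pattern, so this and the direction of their changes follow from the choice. The log2 changes as deposited were 0.70 for miR-199a-5p, 0.63 for miR-139-5p, 0.54 for miR-345-5p, 0.82 for miR-361-5p and 0.82 for miR-194-5p, and all 5 were negative on the Drosha-independent scale.

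Of other miRNAs described as targeting Runx2, miR-204-5p, miR-211-5p and miR-34c-5p could be tested, and 2 of the 3 fell, 0 rose and 1 did not pass as deposited (limma), where 27.3% of all tested miRNAs were called lower. On the Drosha-independent scale all 3 were called lower, as were 160 of all 205. 11 were listed and 6 had reads, and miR-23a, miR-133a, miR-137 and miR-338 were listed as 5p arms, which are not the arms described as acting on Runx2. miR-204-5p was at 202 and 139 TPM in KO libraries and 3825, 3349 and 1558 TPM in EV libraries. miR-211-5p, which has the same seed as miR-204-5p, was listed at 0 in both KO libraries and averaged 12.6 ± 6.03 TPM in EV cells (SD, n = 3). Its call was lost after thinning (limma, adjusted p = 0.206), and without EV library 1 it was below the filter. miR-34c-5p, a p53-induced miRNA, was at 34.9 and 56.1 TPM in KO libraries and 36.0, 46.3 and 51.5 TPM in EV libraries, which overlapped. The list's median log2 change was -3.65, or -0.26 with miR-211-5p set at the bound that 3 reads per KO library allow, beside -0.08 over all tested miRNAs.

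Of the 13 tested miRNAs of families, other than miR-30, described as promoting adipogenesis, among which were miR-204-5p and miR-211-5p, 3 rose and 7 fell as deposited and 3 did not pass (limma), where 27.8% of all tested miRNAs were called higher and 27.3% lower. On the Drosha-independent scale all 13 were called lower, as were 160 of all 205. The list was taken by family name, and miR-193b, miR-210, miR-365 and miR-378a entered it as 5p arms, whose 3p partners are the more abundant arms usually described. Of the 7 that fell, 3 were such arms (miR-365-1-5p, miR-365-2-5p and miR-378a-5p). The median log2 change was -0.88, or -0.75 once miR-211-5p is put at that bound. Of its members with the largest changes, miR-17-5p of the proliferative miR-17-92 cluster was at 102 and 123 TPM in KO libraries and 27.0, 48.7 and 43.9 TPM in EV libraries, a log2 change of 1.51 as deposited and -0.98 on the Drosha-independent scale. miR-365-1-5p averaged 1.75 ± 2.48 TPM in KO cells, from 1 read in the 2 libraries, and 8.13 ± 2.74 TPM in EV cells. Its call was lost without KO library 1, at a log2 change of -0.97 (limma, adjusted p = 0.128), and without EV library 3 (0.0582). It was also lost with a pseudocount of 10 (limma, adjusted p = 0.0698), no filter (0.127), thinning (0.0742), voom (0.276) and the replicate block (0.150). Without EV library 1, and likewise without EV library 2, miR-365-1-5p was below the filter.

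The Drosha-independent list was set beside the group labels, because no values for the Drosha transcript were used. It was chosen with earlier results of these data known, so it is no independent check of the labels. All 5 of its tested members, of 9 listed, rose as deposited and under TMM, median-of-ratios and quantile scaling (limma). As deposited their median log2 change was 3.12, and 27.8% of all tested miRNAs were called higher. On the Drosha-independent scale, built on this list's own sum, 1 was called higher, 1 lower and 3 did not pass (limma). The largest change was that of miR-877-5p, a mirtron released by splicing, at 4.50, followed by miR-3102-5p.2-5p at 3.29, miR-1981-5p at 3.12 and miR-484, from a capped short hairpin, at 2.40. Set against the summed level of this list, the miR-30 family was at 0.241 and 0.457 in KO libraries and 0.884, 1.36 and 0.917 in EV libraries. The groups did not overlap in this ratio (exact permutation p = 0.2). The list's sum itself rose in the knockout, so a fall against it is not particular to the family. With that sum set equal, the median log2 change over all 205 tested miRNAs was -2.53, and 160 were called lower (limma).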

How the data were processed

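The authors deposited 1 table of TPM (read number over length, brought to a sum of 1000000 in each library), listing mature miRNAs with each of their precursors. The submitters' processing notes name Bowtie2 2.5.1 and GRCm38 without a role. The labels' protocols name unique molecular identifiers, but how these, strand and filters entered the counting is not stated there. Whole reads were recovered by searching lengths of 15 to 30 bases for one at which the values of a pair were all whole within 1e-06. This held for 536 of 536 pairs with reads, and the length equalled that of RefSeq for 402 of 402 pairs compared. The 6 pairs that fitted several lengths were left out of that comparison. Intervals and floors cover counting error only, and a count of 0 allows 3 reads.

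Each mature miRNA kept its precursor of highest mean. limma 3.58.1 (R 4.3.3) was fitted to log2(TPM + 1), with a trend of variance on level, to miRNAs averaging 5 TPM or more. Tests were two-sided with Benjamini-Hochberg adjustment and a threshold of 0.05, and changes of low miRNAs are understated by the added 1. Values computed once per library were tested by exact permutation over 10 splits. Scaling factors by TMM and median of ratios were computed on the TPM. The procedure was tested on simulated reads. It recovered 53.8% of planted log2 changes of 1 and more of larger ones, and 6.93% of its calls were false. The text names all members, miRNAs with their seed, up to 4 called miRNAs of each list that changed most, and the 5 nearest profiles. Members and lists were chosen with earlier results of these data known.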

Additional observations from a re-analysis of the deposited data

How the results depend on the processing

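Members called higher numbered 2 as reported, 1 with a pseudocount of 0.1, under TMM, median-of-ratios or quantile scaling, with precursors summed and with the replicate block, 0 with no filter on low values, after thinning and on the Drosha-independent scale (where 4 were called lower), and 4 with each precursor tested on its own. With each precursor on its own, a miRNA with several precursors entered more than once, as rows that are not independent measurements. Leaving out 1 library gave 0 to 3 members called higher. The cause was not tested. On the Drosha-independent scale the log2 values turned to -1.76 (miR-30a-5p), -1.76 (miR-30b-5p), -1.84 (miR-30c-5p), -1.61 (miR-30d-5p), -1.64 (family sum), -0.98 (miR-17-5p), -0.12 (miR-484), -1.83 (miR-199a-5p), -1.90 (miR-139-5p), -1.98 (miR-345-5p), -1.68 (miR-361-5p) and -1.68 (miR-194-5p), a scale built on the list's own sum. The share difference of miR-30b-5p turned to 0.12 after thinning, and leaving out 1 library gave -0.69 to 0.040.

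Over all miRNAs, 57 higher and 56 lower became 31 higher at a filter of 50 TPM, where fewer were tested, and 30 and 31 after thinning. On the Drosha-independent scale they became 3 and 160. With each precursor on its own, where repeated rows count again, 92 were lower, and with the replicate block 35 were lower. Without 1 library, 39 to 61 were higher and 29 to 54 lower. The labels do not say whether same-numbered libraries share more than a number. Their deviations from group means correlated at -0.12 and -0.14. These values cannot settle it, since deviations of only 2 KO libraries mirror each other. limma's voom on recovered reads, chosen after seeing the data, called 2 members and 53 miRNAs higher. The edgeR and DESeq2 alternatives planned for recovered reads were not run, and voom was added instead. Knockout depth limits miR-30e-5p.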
